A study of Arabidopsis thaliana with 111 samples.

Results

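Transcripts of 6 proteins that coat the oil bodies of the Arabidopsis thaliana seed were followed through germination: the oleosins OLEO1 (AT4G25140), OLEO2 (AT5G40420), OLEO3 (AT5G51210) and OLEO4 (AT3G27660), and the caleosins CLO1 (AT4G26740, listed as ATS1 in the reference annotation) and CLO2 (AT5G55240, ATPXG2). They were chosen by locus from a family list, and each of the 6 was found as 1 probe set among 21313 loci on the array. Seeds of accession Columbia-0, for which the labels name no mutation or chemical treatment, were sown on 0.7% water agarose at 22 °C in continuous light and dissected. The micropylar and chalazal endosperm (MCE) and the radicle with the embryo axis (RAD) were sampled at 1, 3, 7, 12, 16, 20, 25, 31 and 38 h. Seeds of 25 h were sorted into those with and those without a ruptured testa, and seeds of 38 h likewise by rupture of the endosperm, which gave 11 stages. The remaining endosperm (PE) was taken at 3 and 16 h, cotyledons (COT) at 3, 16 and 31 h, and whole dry seeds before sowing. Of the 28 groups, 27 held 4 arrays and PE at 3 h held 3.

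Oil bodies are droplets of triacylglycerol, the lipid reserve that feeds the seedling, enclosed by a layer of phospholipid and protein. Oleosins are the main proteins of that coat: a long hydrophobic hairpin anchors them in the oil, and their cover keeps droplets small and keeps them from fusing in the drying seed. Caleosins sit in the same coat through a related hairpin, bind calcium and act as peroxygenases. Both families are made while the embryo and endosperm mature, and their messages are carried over into the dry seed.

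Values are log2 expression values after robust multi-array averaging (RMA), which scales all arrays together, so a level is relative to the other transcripts of the same array and 1 unit is a factor of 2. Levels are set side by side between samples, never between genes. A gene was called higher or lower at a Benjamini-Hochberg adjusted p under 0.05 over all 21313 loci in limma's moderated test together with a log2 difference of at least 1. The errors of log2 differences are standard errors from that fit. Array medians lay between 4.67 and 5.22. The dimmest 25% of loci never passed a group mean of 4.03, which is used below as a limit of dim signal. In these bulk samples fewer cells of a type and less RNA per cell cannot be told apart.

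The labelled parts were checked against marker genes. The summed level of the 2 measured endosperm markers lay between 13.67 and 15.07 on the log2 scale in arrays of MCE and PE, against 4.72 to 8.25 in RAD and 5.09 to 8.38 in COT, so the ranges did not meet. Markers of the root (5 of 6 measured) summed to between 7.78 and 10.83 in RAD, against 6.87 to 8.95 in MCE, and those ranges met. A list of 6 seed coat genes, 3 or 4 of which averaged below the dim limit, rose in both parts with time: the sum was 8.95 to 9.20 in MCE at 38 h with endosperm rupture, against 6.92 to 7.23 at 1 h, and 9.11 to 9.42 in RAD at 38 h, against 6.86 to 7.21 at 1 h. What part seed coat tissue had in the results below was not tested. On 3 arrays of MCE, replicate 2 at 16 h, at 20 h and at 25 h without testa rupture, the title and the source name in the labels gave different stages. They were placed by title, and their values lay nearer the mean of the titled stage than that of the other stage in 6, 6 and 4 of the 6 genes.

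At the first stages none of the 6 transcripts was called different from the dry seed. OLEO1, the most abundant seed oleosin of Arabidopsis, had 13.96, 14.06, 13.95 and 14.04 log2 units in MCE at 1 h and 13.99, 13.99, 14.03 and 13.89 in RAD at 1 h, against 14.06, 13.98, 14.00 and 14.13 in dry seeds. These 12 values overlapped. The differences from dry seed in MCE at 1 h, RAD at 1 h, PE at 3 h and COT at 3 h lay between -0.27 and 0.30 for the 6 genes, where 3.35%, 3.21%, 5.89% and 3.36% of all loci were called in one direction or the other. OLEO3 read 10.88 to 11.13 in RAD at 1 h and 10.33 to 10.41 in PE at 3 h, against 10.64 to 10.67 in dry seeds, wholly above in RAD and wholly below in PE without a call. Dry seeds were sampled whole, so part and time cannot be told apart in these comparisons. Between 1 and 3 h none of the 6 was called in MCE or RAD either, with 3% and 1.2% of loci called. All but OLEO3 started among the top 1% of values on the array, where signals can saturate and a fall may be understated.

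**Figure D1:**
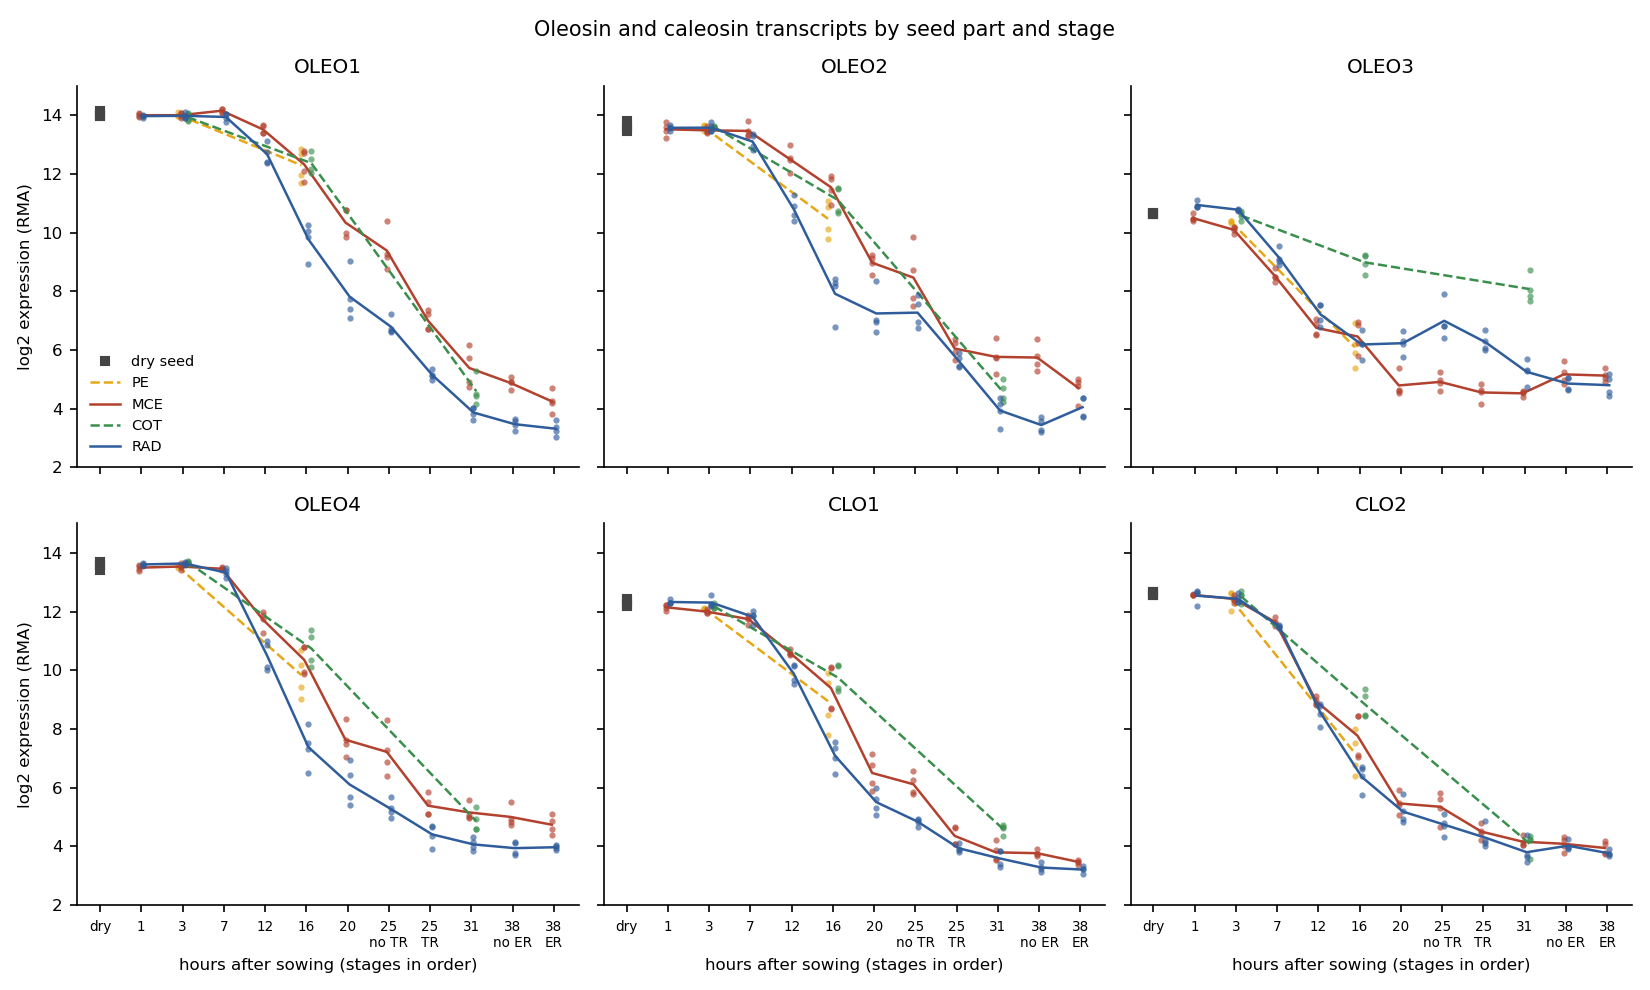
Log2 expression of the 6 genes (vertical axis) at each stage in order of time (horizontal axis, hours after sowing), with points for single arrays and lines through group means of PE, MCE, COT and RAD. Squares are whole dry seeds. Each gene starts near the dry seed and ends between 3.21 and 5.13 in MCE and RAD at 38 h with endosperm rupture, while OLEO3 in COT stays at 8.08 at 31 h.

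By 38 h all 6 genes had fallen in both parts. OLEO1 had 4.21, 4.71, 3.84 and 4.26 log2 units in MCE with a ruptured endosperm at 38 h, against the values near 14 at 1 h given above, and 3.37, 3.03, 3.26 and 3.62 in RAD with a ruptured endosperm. No array of the last stage came near any array of 1 h. The fall was 861-fold in MCE (log2 difference -9.75 ± 0.26, limma adjusted p = 1.99e-55) and 1611-fold in RAD (-10.65 ± 0.26, adjusted p = 2.6e-58).

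The other seed oleosins kept to the same course with 1 exception. OLEO2 was 451-fold lower at 38 h than at 1 h in MCE and 734-fold lower in RAD. OLEO4 was 433-fold and 795-fold lower in MCE and in RAD. OLEO3, one of the smaller seed oleosins, was 41.4-fold lower in MCE (log2 difference -5.37 ± 0.23) and 70.7-fold lower in RAD (-6.14 ± 0.23). Its 4 arrays stood at 4.93, 5.04, 5.17 and 5.39 in MCE at 38 h with endosperm rupture, against 10.48, 10.39, 10.67 and 10.46 at 1 h. All 4 later arrays were below all 4 earlier ones.

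Both caleosins fell nearly as far as the oleosins other than OLEO3. CLO1, whose loss in mutant seeds slows the breakdown of oil bodies, was 410-fold lower at 38 h than at 1 h in MCE and 556-fold lower in RAD. CLO2, a seed caleosin with peroxygenase activity, was 395-fold lower in MCE and 440-fold lower in RAD. The median log2 difference of the 6 genes was -8.72 in MCE and -9.32 in RAD, against -0.14 and -0.18 over all loci, and 18.1% and 17.5% of all loci were called lower. At 38 h with endosperm rupture the means of 2 of the 6 genes in MCE and 4 of the 6 in RAD lay below the dim limit of 4.03, so these total falls can be understated.

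The total fall was not called different between the parts for any gene. The change in MCE less that in RAD lay between 0.15 ± 0.33 for CLO2 and 0.90 ± 0.36 for OLEO1 (limma adjusted p = 0.725 and 0.0288), while 30.9% of all loci were called in this comparison. For OLEO1 it reached 1.04 without MCE replicate 3 at 38 h with endosperm rupture and 1.01 without RAD replicate 4 of that stage, and was then called. Starts in the top 1% of values or dim ends limit the total falls of all genes but OLEO3, so a difference between the parts can be understated.

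OLEO3 was the only gene called lower in both parts at 7 h. It had 8.48, 8.79, 8.49 and 8.31 log2 units in MCE at 7 h, against 10.48, 10.39, 10.67 and 10.46 at 1 h, and 9.12, 8.89, 9.53 and 9.04 in RAD at 7 h, against 10.89, 10.90, 11.13 and 10.88 at 1 h. All arrays of 7 h were below all arrays of 1 h in both parts. The log2 difference was -1.98 ± 0.23 in MCE (limma adjusted p = 7.62e-13) and -1.80 ± 0.23 in RAD (adjusted p = 3.2e-11). It was the only gene of the 6 called lower in MCE at 7 h, where 7.38% of loci were called lower. It was also the only one not to start in the top 1% of values, where an early fall may be understated. What part saturation had in the order of the genes was not tested.

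CLO2 followed. In RAD at 7 h it had 11.47, 11.55, 11.51 and 11.44 log2 units, against 12.62, 12.20, 12.65 and 12.68 at 1 h, without overlap. That made 2 of the 6 genes called lower in RAD at 7 h, against 7.3% of loci (CLO2 -1.05 ± 0.23, limma adjusted p = 7.59e-05; -0.99 and not called after repeated quantile normalization). In MCE the difference for CLO2 at 7 h was -0.92 ± 0.23 (adjusted p = 0.00046), short of the fold minimum, and it reached -1.17 with an added scaling of the arrays. The other 4 genes lay between -0.50 and 0.15 of their level at 1 h in both parts at 7 h.

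At 12 h the oleosins OLEO2 and OLEO4 and the caleosin CLO1 were called lower for the first time in both parts. In RAD at 12 h OLEO4 had 10.01, 10.87, 10.11 and 10.99 log2 units, against 13.57, 13.66, 13.58 and 13.61 at 1 h, and in MCE it had 11.99, 11.26, 11.88 and 11.75, against 13.45, 13.55, 13.58 and 13.39. No arrays overlapped across time in either part. In RAD all 6 genes were lower at 12 h than at 1 h, with 12.1% of loci called lower, and in MCE 5 of 6 were, with 11.9%. OLEO1 was the last: in MCE its difference at 12 h was -0.49 ± 0.26 (limma adjusted p = 0.101) and it was first called lower at 16 h (-1.68 ± 0.26, adjusted p = 1.12e-08), when all 6 genes were, with 13.9% of loci. Once lower than at 1 h, each gene stayed so at all later stages in both parts.

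The call for OLEO2 in MCE at 12 h was close to the fold minimum. Its values were 13.00, 12.03, 12.54 and 12.47 log2 units at 12 h, against 13.79, 13.61, 13.23 and 13.47 at 1 h, a difference of -1.01 ± 0.30 (limma adjusted p = 0.00226). It was lost after repeated quantile normalization (-0.77) and without MCE replicate 2 at 12 h (-0.85), MCE replicate 1 at 1 h (-0.93) or MCE replicate 2 at 1 h (-0.99).

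The rate of loss was taken as the log2 difference divided by the hours between stages, and the halving time as the hours in which the level fell by 1 log2 unit. From 1 to 12 h CLO2 and OLEO3 lost most per hour in both parts. All genes but OLEO3 began in the top 1% of values, so their early rates can be understated. CLO2 changed by -0.33 log2 units per hour in MCE and -0.363 in RAD, with halving times of 3.03 and 2.76 h. OLEO3 changed by -0.34 and -0.339 per hour, with halving times of 2.94 and 2.95 h. OLEO2 halved in 10.8 h in MCE and 3.96 h in RAD, and OLEO4 in 6.2 h and 3.54 h. These are averages over an uneven course. At 1, 7 and 12 h the means of OLEO4 were 13.49, 13.46 and 11.72 in MCE and 13.60, 13.33 and 10.49 in RAD. Most of its fall thus lay after 7 h, a step that was not tested.

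For OLEO2 and OLEO4 this early loss was slower in MCE than in RAD. Between 1 and 12 h the change in MCE less that in RAD was 1.76 ± 0.42 for OLEO2 (limma adjusted p = 0.000632) and 1.34 ± 0.39 for OLEO4 (adjusted p = 0.0052), so 2 of 6 genes were called, against 4.62% of loci called in that direction. For the others the difference was 0.81 for OLEO1 (adjusted p = 0.0959), 0.90 for CLO1 (0.037), 0.36 for CLO2 (0.501) and -0.01 for OLEO3 (0.984). At 12 h OLEO2 had 13.00, 12.03, 12.54 and 12.47 log2 units in MCE, against 10.60, 10.92, 10.40 and 11.29 in RAD, and every MCE array was above every RAD array.

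**Figure D2:**
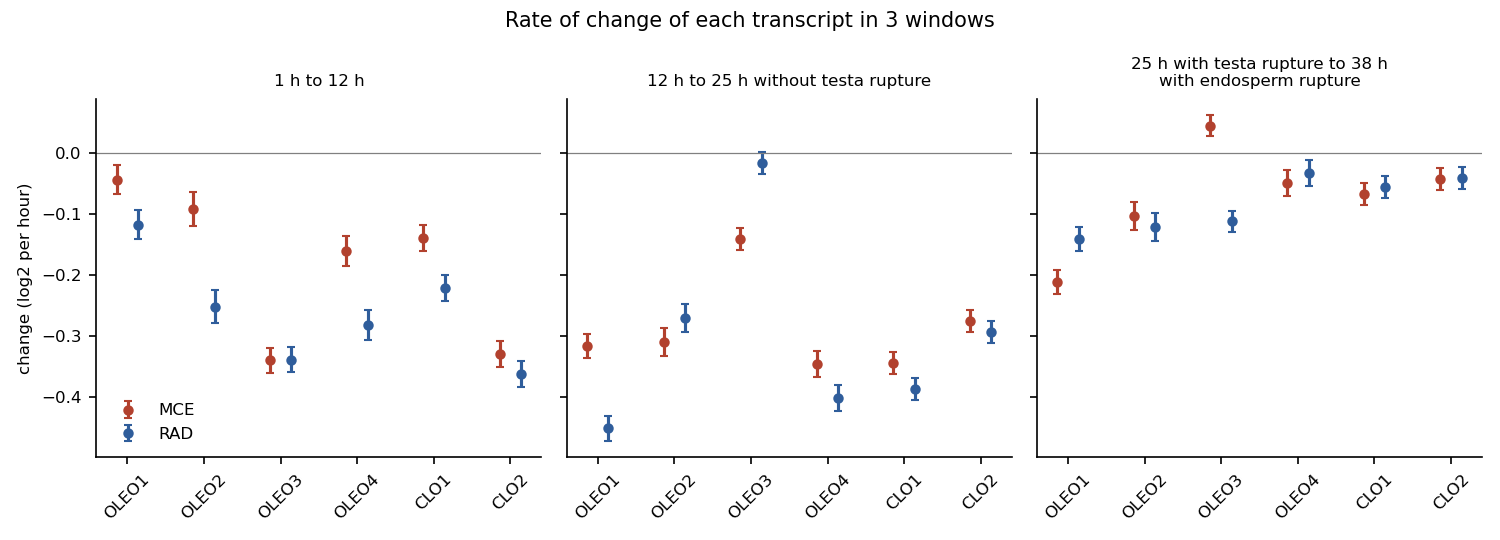
Change in log2 units per hour (vertical axis, bars are standard errors) for each gene in 3 windows in MCE and RAD. OLEO3 and CLO2 change fastest from 1 to 12 h, and OLEO1, OLEO4 and CLO1 from 12 to 25 h. Between the ends of the middle window OLEO3 in RAD changes by only -0.0168 per hour, with lower means at 16 and 20 h.

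Between 12 h and 25 h without testa rupture the order of the genes by average rate turned. This window ended on seeds sorted as unruptured, and the next began on seeds sorted as ruptured. The difference between these seeds at 25 h, given below, thus falls in neither window. OLEO1 changed by -0.317 log2 units per hour in MCE and -0.452 in RAD, with halving times of 3.15 and 2.21 h, after -0.0441 and -0.118 per hour in the first window. In RAD it had 6.66, 6.70, 7.22 and 6.61 log2 units at 25 h, against 12.38, 12.76, 12.43 and 13.13 at 12 h, far apart. OLEO4 halved in 2.89 h in MCE and 2.49 h in RAD, and CLO1 in 2.9 and 2.58 h. OLEO2 halved in 3.22 h in MCE and 3.69 h in RAD, as averages over the window. Its RAD means were 10.80 at 12 h, 7.92 at 16 h, 7.25 at 20 h and 7.28 at 25 h. Most of that fall lay before 16 h, and these steps were not tested. In MCE all 6 genes were called lower, where 7.85% of loci were, and in RAD 5 of 6, where 3.8% were.

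OLEO3 was the exception in RAD. It stood at 7.92, 6.82, 6.41 and 6.84 log2 units in RAD at 25 h without testa rupture, against 6.79, 7.52, 7.03 and 7.53 at 12 h, and the arrays overlapped (difference -0.22 ± 0.23, limma adjusted p = 0.528). Without RAD replicate 1 at 25 h, the highest, the difference was -0.53. Between these ends the RAD means were lower, 6.19 at 16 h and 6.24 at 20 h. The arrays of 16 h, at 5.67 to 6.67, all lay below those of 12 h. The small change between the ends thus hides a fall and a later rise of the means, and these steps were not tested. In MCE OLEO3 had 4.60, 4.86, 4.97 and 5.24 at 25 h, against 6.56, 6.51, 7.08 and 6.89 at 12 h, with no overlap (-1.84 ± 0.23, adjusted p = 1.49e-11).

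Tested as a difference of changes, OLEO3 fell more in MCE than in RAD in this window (-1.62 ± 0.32, limma adjusted p = 1.64e-05), and OLEO1 fell less in MCE than in RAD (1.75 ± 0.36, adjusted p = 4.17e-05). These were 1 of 6 genes in each direction, against 6.88% and 7.43% of loci. Without MCE replicate 4 at 25 h without testa rupture, which was the highest array of its group for all 6 genes, the values were -1.73 and 1.42.

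From 25 h with testa rupture to 38 h with endosperm rupture less was left to lose. In MCE 2 of 6 genes were called lower, OLEO1 (-2.75 ± 0.26, limma adjusted p = 1.22e-16) and OLEO2 (-1.34 ± 0.30, adjusted p = 6.99e-05), with 9.08% of loci called lower. In RAD OLEO1, OLEO2 and OLEO3 were called lower (-1.84, -1.57 and -1.46), with 8.22% of loci. OLEO3 went opposite ways: it had 4.93, 5.04, 5.17 and 5.39 log2 units in MCE at 38 h, against 4.84, 4.64, 4.58 and 4.17 at 25 h, and 5.03, 5.19, 4.42 and 4.58 in RAD at 38 h, against 6.68, 5.996, 6.08 and 6.32 at 25 h. In both parts the stages did not overlap, with the later stage above in MCE and below in RAD. The difference of changes was 2.04 ± 0.32 (adjusted p = 4.94e-08), 1 of 6 genes against 10.2% of loci, while the change in MCE alone, 0.57 ± 0.23, was not called.

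All 4 seed parts can be compared between 3 and 16 h. In COT, OLEO2 had 11.50, 10.67, 11.52 and 10.76 log2 units at 16 h, against 13.55, 13.60, 13.60 and 13.64 at 3 h. In RAD it had 8.43, 8.30, 8.17 and 6.77 at 16 h, against 13.78, 13.46, 13.46 and 13.62 at 3 h. Both parts had fallen without overlap, and RAD ended below COT on every array. All 6 genes were called lower in each part, against 13.1% of loci in PE, 13.7% in MCE, 13.1% in COT and 13.8% in RAD. The largest limma adjusted p of the 6 was 5.17e-08 in PE, 1.4e-08 in MCE, 7.55e-08 in COT and 7.9e-28 in RAD.

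RAD lost the 6 transcripts faster than COT in this window. Halving times ran from 3.54 h (CLO2) to 8.29 h (OLEO1) in COT and from 2.08 h (OLEO4) to 3.09 h (OLEO1) in RAD. The change in COT less that in RAD was 2.64 for OLEO1, 3.17 for OLEO2, 3.00 for OLEO3, 3.32 for OLEO4, 2.79 for CLO1 and 2.39 for CLO2, each called (standard errors of 0.32 to 0.42, largest limma adjusted p = 3.21e-09), against 6.38% of loci. RAD replicate 4 at 16 h was the lowest array of its group for all 6 genes, with a mean difference of -0.78 log2 units from the group means. Without it the same 6 differences ran from 2.18 to 3.02.

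Loss was also slower in MCE than in RAD for 5 of the 6 genes, with 6.81% of loci called in that direction. The change in MCE less that in RAD was 3.72 ± 0.42 for OLEO2, 3.08 ± 0.39 for OLEO4, 2.61 ± 0.33 for CLO1, 2.53 ± 0.36 for OLEO1 and 1.40 ± 0.33 for CLO2 (largest limma adjusted p = 0.000324). OLEO3 differed by 0.96 ± 0.32 (adjusted p = 0.0133), below the fold minimum, and was called after repeated quantile normalization (1.12), with array weights (1.11), and without MCE replicate 1 (1.18), MCE replicate 2 (1.03) or RAD replicate 1 (1.12) at 16 h. Without RAD replicate 4 it was 0.79, and the other 5 ran from 1.19 to 3.34.

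The change from 3 to 16 h was not called different between the pieces of endosperm. The change in PE less that in MCE was -0.04 for OLEO1 (95% interval -0.80 to 0.71), -1.17 for OLEO2 (-2.04 to -0.30), -0.64 for OLEO3 (-1.30 to 0.02), -0.52 for OLEO4 (-1.32 to 0.27), -0.55 for CLO1 (-1.24 to 0.14) and -0.58 for CLO2 (-1.27 to 0.10). None of 6 was called, with 1.04% of loci called, and the intervals leave room for a faster loss in PE of up to 2.04 log2 units. PE at 16 h varied widely: for CLO1 its arrays read 7.81, 8.48, 9.58 and 9.91. Replicate 1 was lowest and replicate 4 highest of that group for all 6 genes. In MCE at 16 h CLO1 read 8.69, 8.70, 10.10 and 10.08, with replicates 1 and 2 low there too.

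**Figure D3:**
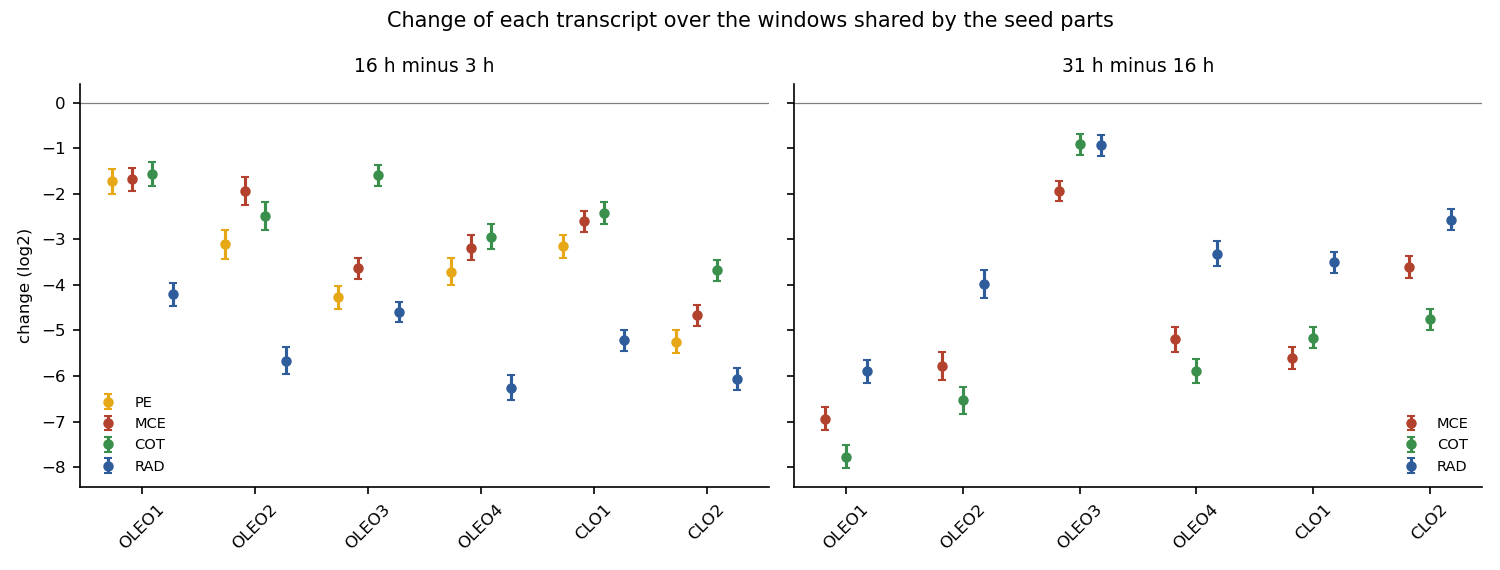
Log2 change of each gene between 3 and 16 h (left, PE, MCE, COT and RAD) and between 16 and 31 h (right, MCE, COT and RAD), with standard errors as bars. In the first window RAD lies lowest for every gene, and in the second window OLEO1, OLEO2, OLEO4 and CLO2 change most in COT.

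PE and COT differed for the pair that had fallen early. OLEO3 had 5.38, 5.91, 6.19 and 6.92 log2 units in PE at 16 h, against 9.26, 8.92, 9.22 and 8.58 in COT at 16 h, and all COT arrays lay above all PE arrays. CLO2 had 6.40, 6.78, 7.54 and 7.998 in PE, against 9.35, 8.43, 9.12 and 8.48 in COT, again apart. The change from 3 to 16 h in PE minus that in COT was -2.68 ± 0.33 for OLEO3 (limma adjusted p = 7.58e-11) and -1.57 ± 0.34 for CLO2 (adjusted p = 0.000115), which made 2 of 6 genes against 7.12% of loci. As levels at 16 h the same 2 of 6 were called lower in PE than in COT, with 7.65% of loci. Without PE replicate 4 the count was 4 of 6 in the changes and in the levels, with OLEO4 (-1.05 and -1.20) and CLO1 (-1.05 and -1.13) joining, and without PE replicate 3 it was 4 of 6 in the levels.

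Between 16 and 31 h the genes fell steeply in COT, except OLEO3. OLEO1 had 4.15, 4.50, 5.30 and 4.45 log2 units in COT at 31 h, against 12.77, 12.05, 12.50 and 12.17 at 16 h, a 219-fold fall with a halving time of 1.93 h (log2 difference -7.77 ± 0.26, limma adjusted p = 9.68e-46). OLEO2, OLEO4, CLO1 and CLO2 had halving times in COT of 2.3, 2.55, 2.91 and 3.15 h. The 5 genes called lower compare with 4.23% of loci. In MCE all 6 were called lower, with 11.7% of loci, and in RAD, which had lost more before 16 h, 5 of 6, with 4.34%.

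OLEO3 was not called lower in the cotyledons. It had 8.73, 7.68, 8.06 and 7.86 log2 units in COT at 31 h, against 9.26, 8.92, 9.22 and 8.58 at 16 h, and 1 array of 31 h reached into the range of 16 h (-0.91 ± 0.23, limma adjusted p = 0.000448). That is below the fold minimum, and it was called lower with array weights (-1.05), without COT replicate 1 at 31 h (-1.13) and without COT replicate 4 at 16 h (-1.05). In RAD the same window gave -0.93 ± 0.23 (adjusted p = 0.000328), and -1.02, -1.07 and -1.10, each called, after repeated quantile normalization, without RAD replicate 1 at 31 h and without RAD replicate 4 at 16 h.

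At 31 h OLEO3 was far higher in COT than in MCE and RAD. The gap was already there at 16 h, with means of 8.99 in COT, 6.46 in MCE and 6.19 in RAD. At 31 h OLEO3 had 4.61, 4.54, 4.39 and 4.57 log2 units in MCE and 8.73, 7.68, 8.06 and 7.86 in COT, against 5.69, 4.76, 5.31 and 5.28 in RAD, with no overlap. COT was 7.06-fold above RAD (2.82 ± 0.23, limma adjusted p = 3.85e-20), and MCE was 11.7-fold below COT (-3.55 ± 0.23, adjusted p = 1.13e-26). CLO1 was the other gene called higher in COT than in RAD at 31 h (1.01 ± 0.24, adjusted p = 0.000174), which made 2 of 6 against 8.3% of loci; it was lost after repeated quantile normalization (0.84) and without any of RAD replicates 2 and 4 and COT replicates 1, 3 and 4 (0.91 to 1.00). Against COT at 31 h, MCE was lower for OLEO3 alone (18% of loci were called lower) and higher for OLEO2 alone (1.19 ± 0.30, 15.1% of loci), a call lost without MCE replicate 3 (0.98). OLEO1 was called as well without MCE replicate 1 (1.01) or COT replicate 3 (1.02), an array that read 5.30. The summed markers of cotyledon polarity (5 of 5 measured) were at 11.53 to 11.74 in COT at 31 h.

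From 16 to 31 h the signs of the differences against RAD were turned for most of the genes. The change from 16 to 31 h in COT minus that in RAD was -1.87 for OLEO1, -2.56 for OLEO2, -2.57 for OLEO4, -1.65 for CLO1 and -2.19 for CLO2, and 0.02 for OLEO3 (limma adjusted p = 0.982), so for 5 of 6 genes the fall was called larger in COT, with 4.33% of loci called in that direction. Against RAD the fall in MCE was called larger for all 6 genes, with 10.2% of loci: -1.03 for OLEO1, -1.80 for OLEO2, -1.01 for OLEO3, -1.88 for OLEO4, -2.10 for CLO1 and -1.04 for CLO2. In RAD at 31 h OLEO1 (3.87), OLEO2 (3.94), CLO1 (3.58) and CLO2 (3.799) averaged below the dim limit of 4.03 and OLEO4 stood at 4.07, so the fall in RAD can be understated and the differences against it overstated. In MCE at 31 h CLO1 (3.79) lay below that limit too. The calls for OLEO1, OLEO3 and CLO2 in MCE against RAD rest close to the fold minimum and were lost with an added scaling of the arrays (-0.95, -0.92 and -0.95) and without RAD replicate 4 at 16 h (-0.75, -0.83 and -0.83), MCE replicate 3 at 16 h (-0.89, -0.84 and -0.81), MCE replicate 4 at 16 h (-0.90, -0.88 and -0.81) or RAD replicate 1 at 31 h (-0.98, -0.86 and -0.85). In a fit of only the 4 compared groups OLEO1 and CLO2 were not called (limma adjusted p = 0.074 and 0.0587), and after repeated quantile normalization OLEO1 (-0.97) and OLEO3 (-0.93) were not. OLEO1 was also lost without MCE replicate 1 (-0.82), MCE replicate 2 (-0.88) or RAD replicate 4 (-0.99) at 31 h, and OLEO3 without MCE replicate 3 (-0.96) or RAD replicates 3 or 4 (-0.99 and -0.998) at 31 h. Between MCE and COT, OLEO3 fell more in MCE (-1.02 ± 0.32, adjusted p = 0.00546, 12.1% of loci) and CLO2 less (1.15 ± 0.33, adjusted p = 0.00246, 10.1% of loci). Both calls were lost without some arrays: OLEO3 lay between -0.9997 and -0.81 without MCE replicates 3 or 4 at 16 h, MCE replicate 3 at 31 h, COT replicates 2 or 4 at 16 h or COT replicate 1 at 31 h, and CLO2 between 0.91 and 0.98 without MCE replicates 1 or 2 or COT replicate 1 at 16 h or COT replicate 2 at 31 h.

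Seeds collected at the same hour differed by whether the testa had ruptured. In MCE at 25 h OLEO1 had 6.70, 6.70, 7.24 and 7.37 log2 units with a ruptured testa, against 9.16, 9.26, 8.75 and 10.40 without. OLEO2 had 6.36, 5.67, 5.95 and 6.23 with rupture, against 7.78, 8.72, 7.52 and 9.86 without. No array with rupture reached one without it in either gene. OLEO1 was 5.25-fold lower with rupture (log2 difference -2.39 ± 0.26, limma adjusted p = 6.99e-13), OLEO2 5.34-fold (-2.42 ± 0.30, adjusted p = 1.69e-10), OLEO4 3.57-fold (-1.83 ± 0.27, adjusted p = 5.98e-08) and CLO1 3.39-fold (-1.76 ± 0.24, adjusted p = 2.77e-09).

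These 4 of 6 genes in MCE compare with 0.54% of all loci called lower after testa rupture. CLO2 (-0.85 ± 0.23, limma adjusted p = 0.00464) and OLEO3 (-0.36 ± 0.23, adjusted p = 0.333) were not called, from means of 5.35 and 4.92 in the unruptured seeds. CLO2 was called without MCE replicate 3 of the unruptured seeds (-1.07). Without MCE replicate 4 of the unruptured seeds, the highest array for all 6 genes, the differences of the 4 called genes were -2.06, -1.95, -1.47 and -1.61 and the same 4 were called. The summed seed coat markers lay at 7.99 to 8.28 in MCE with rupture and at 7.51 to 8.0 without, and their part in the difference was not tested.

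RAD showed the same direction at 25 h. OLEO1 had 5.35, 5.12, 5.16 and 4.99 log2 units with a ruptured testa, against 6.66, 6.70, 7.22 and 6.61 without, a 3.12-fold fall (-1.64 ± 0.26, limma adjusted p = 5.5e-07). OLEO2 was 3.13-fold lower (-1.65 ± 0.30, adjusted p = 1.59e-05). These 2 of 6 genes compare with 0.577% of loci. OLEO4 (-0.87), CLO1 (-0.91), OLEO3 (-0.73) and CLO2 (-0.44) were below the fold minimum, and OLEO4 was called with array weights (-1.05). The difference between MCE and RAD in this step was not tested.

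**Figure D4:**
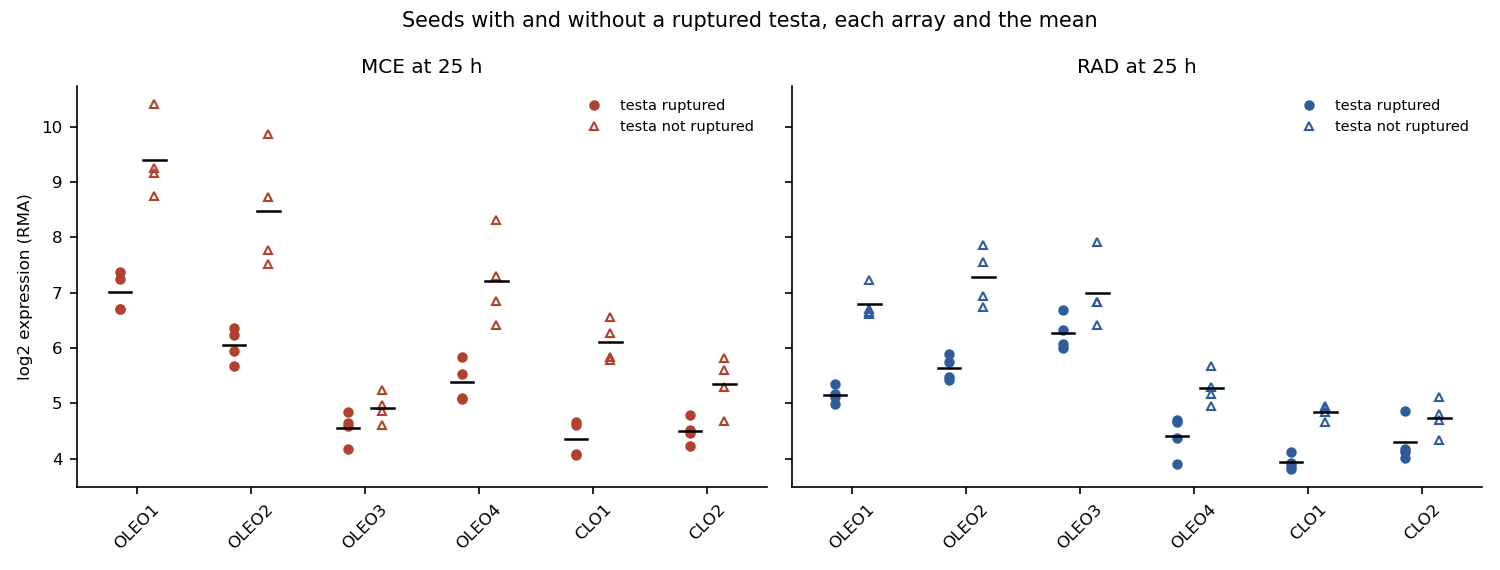
Log2 expression (vertical axis) of each gene on single arrays of seeds with a ruptured testa (filled circles, left of each pair) and without (open triangles) in MCE and RAD at 25 h, with the mean as a bar. In MCE the ruptured seeds lie wholly below the unruptured ones for OLEO1, OLEO2, OLEO4 and CLO1.

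Endosperm rupture at 38 h, a later step when little signal was left, went with 1 call. OLEO2 in MCE had 4.93, 5.03, 4.11 and 4.78 log2 units with a ruptured endosperm, against 6.37, 5.54, 5.79 and 5.29 without, with no overlap (-1.04 ± 0.30, limma adjusted p = 0.0155). That was 1 of 6 genes, with 0.328% of loci called lower, and it was lost with an added scaling of the arrays (-0.99). In RAD none of 6 was called (-0.26 to 0.61), with 1.91% of loci called in one direction or the other.

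Set side by side at each stage, MCE and RAD began without a called difference and drew apart from 12 h. At 38 h with endosperm rupture, where much of the signal was dim, no difference was called. None of 6 genes was called different at 1, 3 or 7 h, when 5.48%, 6.65% and 8.72% of loci were. OLEO3 nonetheless lay lower in MCE than in RAD on every array at 1, 3 and 7 h (-0.44, -0.69 and -0.62), short of the fold minimum. At 12 h OLEO2 (1.71 ± 0.30) and OLEO4 (1.23 ± 0.27) were higher in MCE, 2 of 6 against 5.52% of loci. At 16 h 5 of 6 were, against 7.62%: OLEO2 by 12.4-fold (3.63), OLEO4 by 7.85-fold (2.97), OLEO1 by 5.85-fold (2.55), CLO1 by 4.95-fold (2.31) and CLO2 by 2.64-fold (1.40), while OLEO3 differed by 0.27 ± 0.23 (limma adjusted p = 0.375). OLEO4 read 9.95, 9.88, 10.79 and 10.78 in MCE at 16 h, against 7.53, 7.32, 8.18 and 6.48 in RAD, and no arrays overlapped. Without RAD replicate 4 these 5 differences were 3.25, 2.67, 2.26, 2.10 and 1.19.

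COT at 16 h was like MCE in standing above RAD. All 6 genes were higher in COT than in RAD, by 2.48 (CLO2) to 3.37 (OLEO4) log2 units, with 6.12% of loci called higher. CLO1 had 10.14, 9.31, 10.16 and 9.39 log2 units in COT at 16 h, against 7.33, 7.00, 7.55 and 6.47 in RAD, and the groups were well apart. Only OLEO2 was called lower in PE than in MCE at 16 h (-1.08 ± 0.30, limma adjusted p = 0.0123; 0.84% of loci), a call lost without PE replicate 1 (-0.85), PE replicate 2 (-0.96), MCE replicate 3 (-0.98) or MCE replicate 4 (-0.95). Arrays of the same number deviated together in this comparison (r from 0.265 to 0.425 in the 4 pairs), and PE lay below MCE in 4 of 4 pairs for OLEO2, OLEO4, CLO1 and CLO2. With a replicate block within these 2 groups, chosen after seeing the data, OLEO2 remained the only call (limma adjusted p = 0.000201). OLEO4, CLO1 and CLO2 (-0.52, -0.45 and -0.59) had adjusted p-values of 0.0157, 0.0271 and 0.00258 in that fit and stayed below the fold minimum.

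OLEO3 was called lower in MCE than in RAD at 20 and 25 h, while other genes were called higher. It had no such call at 31 or 38 h. At 20 h OLEO1, OLEO2 and OLEO4 were higher in MCE (2.53, 1.73 and 1.52; 9.75% of loci), and OLEO3 was lower (-1.44 ± 0.23, limma adjusted p = 3.36e-08; 10.5% of loci). CLO1 differed by 0.99 and was called after repeated quantile normalization (1.08), with array weights (1.16) and without the 3 arrays with differing labels (1.10). At 25 h without testa rupture OLEO3 had 4.60, 4.86, 4.97 and 5.24 log2 units in MCE, against 7.92, 6.82, 6.41 and 6.84 in RAD, with MCE below RAD on every array (-2.08 ± 0.23, adjusted p = 7.83e-14). It was 1 gene of 6 against 11.9% of loci lower in MCE, and OLEO1 (2.60), OLEO4 (1.95), CLO1 (1.27) and OLEO2 (1.19) were higher, 4 of 6 against 11%. OLEO2 lost its call there without MCE replicate 4 (0.73), and OLEO3 was at -1.77 without RAD replicate 1.

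With a ruptured testa the same split held in fewer genes. OLEO1 was higher in MCE at 25 h (1.85 ± 0.26, limma adjusted p = 7.3e-10; 12.6% of loci) and OLEO3 lower (-1.71 ± 0.23, adjusted p = 1.25e-10; 13.6% of loci). OLEO4 differed by 0.98 and was called with array weights (1.13), an added scaling (1.02) and without MCE replicates 1 or 3 or RAD replicates 1 or 4 (1.06 to 1.08). At 31 h OLEO1 (1.52), OLEO2 (1.83) and OLEO4 (1.09) were higher in MCE, 3 of 6 against 14.2% of loci, with OLEO4 lost without MCE replicate 4 (0.95). The same 3 were higher at 38 h without endosperm rupture (1.40, 2.30 and 1.06; 14.1% of loci).

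At 38 h with endosperm rupture none of 6 was called different between MCE and RAD, with differences of 0.18 to 0.93, while 31.6% of all loci were. OLEO1 passed with an added scaling (1.00), without MCE replicate 3 (1.07) and without RAD replicate 4 (1.04).

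**Figure D5:**
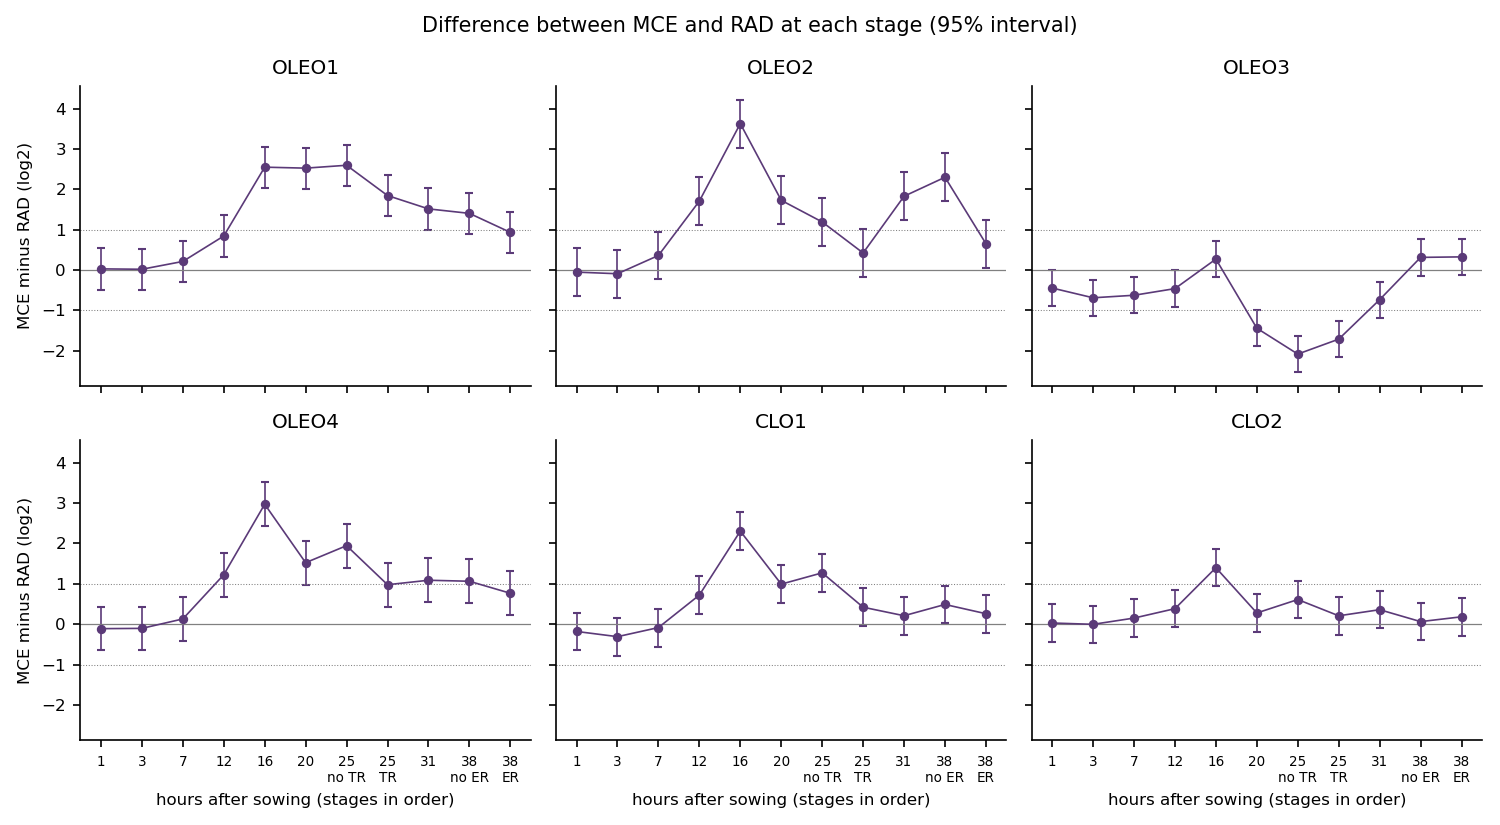
Log2 level in MCE minus that in RAD (vertical axis, bars are 95% intervals) at each of the 11 stages in order of time. Dotted lines mark the fold minimum of 1 log2 unit. OLEO1, OLEO2, OLEO4, CLO1 and CLO2 peak at 16 h or hold until 25 h, while OLEO3 dips to -2.08 at 25 h without testa rupture. OLEO2 rises again later, to 2.30 at 38 h without endosperm rupture.

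Ranked over all 28 groups, the levels formed near-continuous series. Group means spanned 10.84 log2 units for OLEO1, 10.18 for OLEO2, 9.75 for OLEO4, 9.12 for CLO1, 8.85 for CLO2 and 6.42 for OLEO3. Of the 27 pairs of neighbouring groups in each ranking, the arrays overlapped in 23 for OLEO1, OLEO2 and CLO1, in 25 for OLEO4 and CLO2 and in 22 for OLEO3. OLEO2, OLEO4, OLEO1 and CLO1 each had a break between PE at 16 h and the group ranked next. For OLEO4, OLEO1 and CLO1, all arrays of PE, MCE and COT at 16 h lay above those of 20 h and later. They also lay above those of RAD at 16 h. For OLEO2, MCE at 25 h without testa rupture reached 9.86, above the lowest PE array of 16 h at 9.79. CLO2 broke after PE at 3 h and after RAD at 7 h. OLEO3 broke after RAD at 1 h, RAD at 3 h, PE at 3 h and MCE at 3 h. COT at 31 h, ranked 11 from the top for this gene, did not overlap RAD at 12 h, ranked next. It did overlap RAD at 25 h without testa rupture, which reached 7.92, above the lowest COT array at 7.68.

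The 6 genes moved as a group, with OLEO3 the loosest. Pearson's r between their group means over the 28 groups was 0.92 to 0.996 among the other 5 (highest for OLEO4 with CLO1), and 0.76 to 0.91 between OLEO3 and the others. These are descriptions, since the points share arrays and their scaling. Among 10940 other loci whose group means spanned at least 2 log2 units, 102 had r above 0.95 with the mean profile of the 6 genes and 15 had r above 0.98. The closest were AT2G28490 (0.994), SESA5, a seed storage albumin (0.994), GASA3 (0.993), HSP17.4, a small heat shock protein (0.991), and SMP1 (0.989). OLEO1 was most like the cruciferin CRA1 (0.991) and the vicilin PAP85 (0.986), CLO2 most like SMP1 (0.997) and the metallothionein AtMT4b (0.995), and OLEO3 most like AT1G61065 and AT1G63240 (both 0.979). OLEO4 and CLO1 had the same nearest pair, SESA5 (0.996 and 0.995) and GASA3 (0.994 and 0.992), and OLEO2 had GASA3 (0.992) and AT2G28490 (0.991).

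Other oil body genes shared the fall in part. Of 25 listed genes for further oil body proteins 16 were measured, and at 38 h with endosperm rupture against 1 h 10 were lower and 1 higher in MCE (median -1.79), and 11 lower and 1 higher in RAD (median -2.98). Of all loci 18.1% were called lower and 18.8% higher in MCE, and 17.5% lower and 21.8% higher in RAD. AT3G01570 (-8.99 in MCE, -9.45 in RAD), AT2G25890 (-8.83 and -9.15) and HSD5, a steroleosin (-7.83 and -7.97), fell. AT1G67360 rose in both parts (2.63 in MCE and 1.35 in RAD). RD20, a caleosin known for its response to drought, was not called, and averaged 2.96 in MCE at 38 h and 3.28 at 1 h, both below the dim limit. At 38 h with endosperm rupture AT1G29760 (1.86), AT5G16550 (1.44) and AT3G14360 (1.09) were higher in MCE than in RAD, and AT2G47780 was lower (-1.03), where 14.1% of all loci were called higher and 17.6% lower.

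Genes for storage proteins fell without exception among those measured. Of 9 storage protein genes all 9 were lower at 38 h than at 1 h in MCE (median -7.96) and in RAD (median -10.19), among them the cruciferin CRU2 (-8.76 and -10.58) and SESA5 (-9.91 and -10.77). At 38 h with endosperm rupture 5 of the 9 were higher in MCE than in RAD, against 14.1% of all loci, SESA3 (3.21), SESA2 (3.03) and SESA1 (2.65) most. Of 7 measured genes for triacylglycerol synthesis 2 were lower and 2 higher in MCE, and 2 lower and 1 higher in RAD, against 18.1% lower and 18.8% higher of all loci in MCE and 17.5% and 21.8% in RAD, and with so few genes nothing is read from these counts. TAG1, the main acyltransferase for seed oil, fell (-2.21 in MCE and -1.82 in RAD), PDAT, another enzyme of that step, rose in MCE (2.49), and LPAT2, an acyltransferase earlier in the path, rose (1.16 and 2.43). Of 4 lipase genes SDP1-LIKE fell in MCE (-1.49), and AT4G24160 rose in both parts (1.11 and 1.11).

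Among 11 regulators of seed maturation 5 were lower and 2 higher in MCE at 38 h than at 1 h, and 5 lower and 1 higher in RAD, against 18.1% lower and 18.8% higher of all loci in MCE and 17.5% and 21.8% in RAD. The share that was higher is near that of all loci in MCE. ABI5, a transcription factor of abscisic acid signalling, fell in both (-5.70 in MCE and -5.14 in RAD), as did EEL, a related factor (-4.46 and -5.25). FUS3 and ABI3, both master regulators of maturation, fell in both parts as well (FUS3 -4.15 in MCE and -1.38 in RAD, ABI3 -2.66 in MCE and -3.10 in RAD). BZIP53, a factor that activates seed maturation genes, rose in both (1.93 and 1.45).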

How the data were processed

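Labelled cRNA was made from 100 ng of total RNA with an Affymetrix 3' IVT kit, per the labels' protocols. The authors deposited log2 expression values, 1 per locus and array, made with RMA and affy, per the submitters' processing notes. Versions, the assignment of probes to loci and the genome build are not given in the sources used here. Of 21313 loci, 21205 were found in the reference annotation and 108 were not. Arrays were grouped by title. No 2 arrays were identical.

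All loci entered 1 fit with limma 3.58.1 (R 4.3.3), with a mean for each group and an error estimate on 83 residual and 8.02 prior degrees of freedom, for 69 comparisons, of which 11 were differences of changes. Tests were two-sided and adjusted over all loci within a comparison. The origin of the replicates is not stated, so the p-values reflect only how much these samples differ, which may be technical; the median moderated SD was 0.193. The number of arrays limits the precision.

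The 6 genes and the lists beside them were chosen with earlier results of these data known. Named list members were up to 3 called genes with the largest rise and fall in the changes from 1 to 38 h and between MCE and RAD at 38 h, and RD20 was named after its values were seen. Genes most like the 6 were ranked by Pearson's r of group means. Alternatives were repeated quantile normalization, an added scaling of arrays by a trimmed mean (30% at each end), a filter on the dimmest 25% of loci, an intensity trend, array weights, a replicate block, fits that left out 6 redone arrays or 3 with differing labels, fits of the compared groups alone, no fold minimum, a slope over all stages, and each array left out in turn. The procedure was tested on simulated data.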

Additional observations from a re-analysis of the deposited data

Results flagged for a closer look

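Among 162 sets of 1 gene in 1 group of 4 arrays, 7 held an array far from the other 3, where chance gives about 1 in 20. OLEO1 in RAD at 25 h without testa rupture read 7.22 on replicate 3, with the others at 6.61 to 6.70. OLEO2 in RAD at 16 h read 6.77 on replicate 4, below 8.17 to 8.43. OLEO3 in MCE at 20 h read 5.40 on replicate 4, above 4.53 to 4.65. At 1 h in RAD, OLEO3 read 11.13 on replicate 3 (others 10.88 to 10.90), CLO1 read 12.41 on the same array (others 12.29 to 12.30), and CLO2 read 12.20 on replicate 2 (others 12.62 to 12.68). CLO2 in COT at 31 h read 3.55 on replicate 2, below 4.23 to 4.34.

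A change that differed between seed parts by its own test in limma was called in 31 of 66 gene and comparison sets. Between 1 and 12 h the change in MCE minus that in RAD was 1.76 for OLEO2 and 1.34 for OLEO4. Between 12 h and 25 h without testa rupture it was 1.75 for OLEO1 and -1.62 for OLEO3, and between 25 h with testa rupture and 38 h with endosperm rupture 2.04 for OLEO3.

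Between 3 and 16 h the change in COT minus that in RAD was 2.64 for OLEO1, 3.17 for OLEO2, 3.00 for OLEO3, 3.32 for OLEO4, 2.79 for CLO1 and 2.39 for CLO2. In the same window the change in MCE minus that in RAD was 2.53 for OLEO1, 3.72 for OLEO2, 3.08 for OLEO4, 2.61 for CLO1 and 1.40 for CLO2, and PE minus COT gave -2.68 for OLEO3 and -1.57 for CLO2.

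From 16 to 31 h the signs against RAD were the opposite, with 4 of the 6 genes in RAD at 31 h averaging below the limit of dim signal. COT minus RAD gave -1.87 for OLEO1, -2.56 for OLEO2, -2.57 for OLEO4, -1.65 for CLO1 and -2.19 for CLO2. MCE minus RAD gave -1.03 for OLEO1, -1.80 for OLEO2, -1.01 for OLEO3, -1.88 for OLEO4, -2.10 for CLO1 and -1.04 for CLO2, and MCE minus COT gave -1.02 for OLEO3 and 1.15 for CLO2.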

How the results depend on the processing

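No called difference of a single gene reversed in the settings run. Of 4218 single-gene values under other settings 4150 kept their call, 18 lost it and 50 gained it. With 1 array left out, 3201 of 3276 kept it, 43 lost it and 32 gained it, over 87 arrays and 58 of 69 comparisons, 28 of these added after seeing the data. Of the counts of genes called, 1004 of 1032 stayed within 1.5 times under other settings and 834 of 877 with 1 array left out.

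Without the fold minimum the change from 1 to 38 h in MCE minus that in RAD had 3 genes called higher (0 with it, and the reported count stands in brackets below). Lower were then 5 (2) in MCE and 5 (3) in RAD from 25 h with testa rupture to 38 h with endosperm rupture and 1 (0) in their difference, 2 (1) in MCE at 7 h against 1 h, and 5 (2) in RAD after testa rupture. MCE minus RAD then had 1 (0) lower at 3 h, 7 h and 31 h, 4 (2) higher at 12 h, 2 (1) higher at 25 h with testa rupture and 2 (0) higher at 38 h with endosperm rupture. PE minus COT at 16 h had 4 (2) lower, COT minus RAD at 31 h had 4 (2) higher, and MCE minus COT at 31 h had 2 (1) lower and 2 (1) higher.

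Repeated quantile normalization gave 1 (0) lower in the difference of changes from 25 to 38 h (OLEO1, -1.09), 1 (2) lower in RAD at 7 h and 1 (2) higher in COT than in RAD at 31 h. Added scaling gave 2 (1) lower in MCE at 7 h, 0 (1) lower in the change from 16 to 31 h in MCE minus COT, 3 (6) lower in MCE minus RAD, 0 (1) lower after endosperm rupture in MCE, and 2 (1) and 1 (0) higher in MCE than in RAD at 25 h with testa rupture and at 38 h with endosperm rupture. Array weights gave 0 (1) higher in the change from 16 to 31 h in MCE minus COT, as did the fit without the 3 arrays with differing labels, and 2 (1) higher in MCE at 25 h with testa rupture. The cause was not tested in any of these.

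With 1 array left out, counts ranged from 0 to 2 higher and 0 to 1 lower in the change from 16 to 31 h in MCE minus COT, 3 to 6 lower in MCE minus RAD, 0 to 1 higher in the change from 1 to 38 h, 0 to 1 lower in that from 25 to 38 h (OLEO1, -1.01 to -1.06 without MCE replicate 1 or 2 at 25 h or replicate 2 of either part at 38 h), and 2 to 4 lower in the change in PE minus COT. For levels they ranged from 1 to 2 higher in COT than in RAD at 31 h, 1 to 2 and 0 to 1 higher in MCE than in RAD at 25 h with testa rupture and at 38 h, 0 to 2 higher in MCE than in COT at 31 h, 2 to 4 lower in PE than in COT and 0 to 1 lower in PE than in MCE at 16 h.

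Arrays of the same number varied together little on average (mean r 0.0693, against -0.0227 for others). Every pair passed 0.1 in 1 of 58 comparisons, PE minus MCE at 16 h (0.265 to 0.425, against a mean of -0.119 for others), and COT minus RAD at 16 h ran from 0.0993 to 0.335. In 5 comparisons, COT minus RAD at 16 h among them, every array correlated best with its own number. With the replicate block all 414 single-gene calls were as without it, with 6 genes lower at 38 h in MCE and in RAD. From 1 to 12 h the 5 genes that began in the top 1% of values changed by a median of -1.54 in MCE and -2.77 in RAD, and OLEO3 by -3.74 and -3.73. With 38 h without endosperm rupture as the end, OLEO2 in MCE changed by -0.0235 per hour from 25 h, in place of -0.103, and was not called.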

Other observations

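Some arrays stood at one edge of their group for most of the 6 genes at once. In RAD at 20 h replicate 4 was the highest array for 5 of the 6, with a mean difference of 0.71 log2 units from the group means, while replicate 4 in RAD at 16 h was the lowest for 6 of 6. OLEO1 read 9.04 on the array of 20 h, against 7.10 to 7.74 on the others of its group, and 8.92 on the array of 16 h, so that the values of these 2 stages overlapped. In MCE at 16 h replicates 1 and 2 lay below replicates 3 and 4 in OLEO1 (12.10 and 11.71, against 12.77 and 12.71), CLO1 (8.69 and 8.70, against 10.10 and 10.08) and CLO2 (7.04 and 7.13, against 8.45 and 8.45). Replicate 2 of that group was labelled 12 h in its source name and lay below all arrays of MCE at 12 h for 6 of 6 genes.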
